A study of Mus musculus with 6 samples.

Results

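The pentose phosphate pathway was described in RNA sequencing of articular cartilage from wildtype mice, with 3 libraries of 2-month-old and 3 libraries of 18-month-old animals. The 10 genes were chosen by name, with the age contrast of these libraries already known: G6pdx, H6pd, Pgls, Pgd, Rpia, Rpe, Tkt, Taldo1, Prps1 and Prps2. They are 10 of 33971 genes in the deposited table, and all 10 were found in it and passed the filter on low counts. Both age groups carried the same WT genotype and received no treatment named in the labels, which give neither strain nor sex, nor say whether a library came from 1 animal or a pool. The contrast was made to follow expression in articular cartilage with age.

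The pathway branches from glycolysis at glucose 6-phosphate. Its oxidative branch reduces NADP+ to NADPH, the electron donor for glutathione recycling, lipid synthesis and the oxidative burst of phagocytes, and releases ribulose 5-phosphate. The non-oxidative branch interconverts sugar phosphates and feeds them back into glycolysis or out to ribose 5-phosphate, which the PRPP synthetases activate for nucleotide synthesis. Articular cartilage is poorly supplied with oxygen, and its chondrocytes are known for a metabolism based on glucose.

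The libraries held between 48171507 and 59085179 counts. The share of counts taken by markers of several cell types differed between libraries. The summed counts of 14 chondrocyte markers took 3.77% to 6.42% of the counts at 2 months and 0.0592% to 0.147% at 18 months, with Matn1 and Matn3 at 0 in 18-month replicate 3. The 18-month libraries are thus labelled cartilage but carried little of the defining cartilage transcripts. The summed counts of 12 neutrophil markers took 0.00172%, 0.559% and 0.0268% in 2-month replicates 1, 2 and 3 and 4.25% to 4.58% at 18 months. The X-inactivation transcript Xist had 88239, 102417 and 101615 counts at 2 months and 11, 27 and 30 at 18 months, while the study's methods name male mice only. Age and sex therefore cannot be told apart in any value given here.

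Levels are given as FPKM, the count scaled by transcript length and by the size of the library, which the authors deposited and which allows genes to be compared with each other. Fold changes are those of 18-month over 2-month cartilage, from edgeR's quasi-likelihood fit of the counts with TMM scaling, and carry a standard error (SE). Calls used the study's limits, a Benjamini-Hochberg adjusted p below 0.05 over the 20397 genes tested together with a log2 fold change beyond 1 in either direction.

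Of the 10 genes, 7 were called higher and 0 lower in 18-month cartilage, where 14.9% of all genes tested were called higher and 21.3% lower, 36.3% in all. Every member of the non-oxidative branch was among the 7, with 3 of 4 members of the oxidative branch and neither PRPP synthetase. With no limit on the fold change, 9 of the 10 passed the adjusted p, 8 higher and H6pd lower, where 51.3% of all genes passed. In this edgeR test the adjusted p was 0.0464 for H6pd and 0.0172 for Prps2. Under other settings it reached 0.157 for H6pd and 0.180 for Prps2, so neither gene passed under every setting. The median log2 fold change was 1.60 over the 10 genes and −0.02 over all genes. It was 1.60 over the oxidative branch, 2.42 over the non-oxidative branch and 0.49 over the PRPP synthetases. These counts were used in proposing the genes, so they describe them and are not read as evidence.

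**Figure D1:**
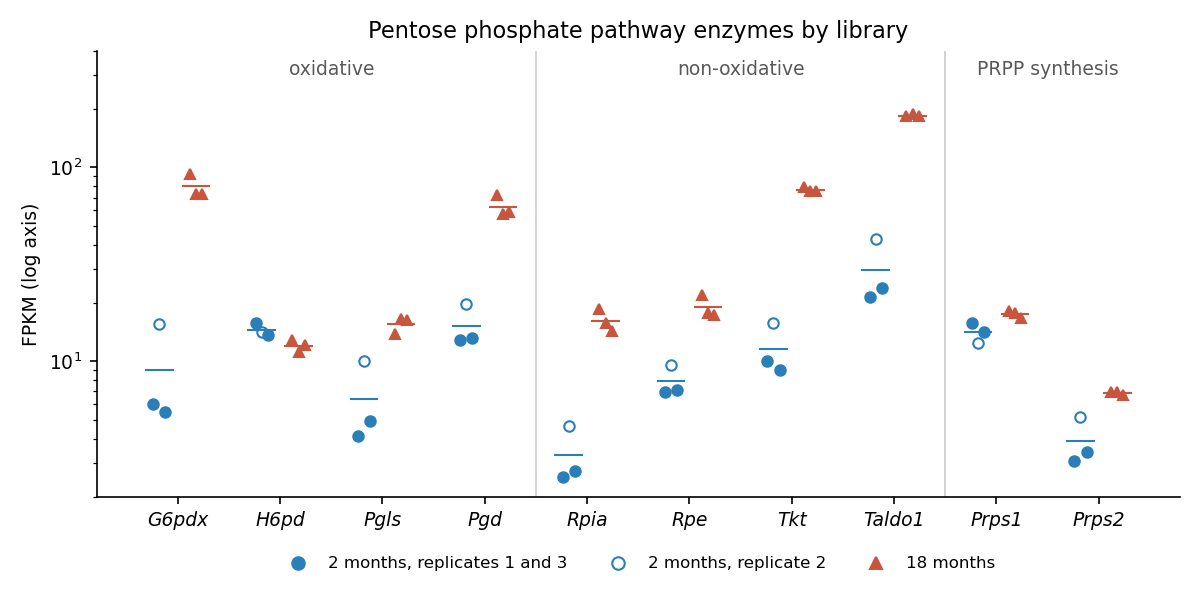
FPKM of each of the 10 genes in the 3 libraries of 2-month (left) and 3 of 18-month cartilage, on a log axis, with points for libraries, an open circle for 2-month replicate 2 and bars for the mean. Taldo1 is the highest at both ages, with means of 29.4 and 185 FPKM, and the H6pd points of 18 months lie below those of 2 months.

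The start regions of 3 members are shown because they hold the gene with the largest change, the transketolase of the non-oxidative branch and a synthetase that hardly changed. The sequences are the 250 bases before the RefSeq start in GRCm38.p6, on the strand of the gene, at chrX:74428881-74429130 (minus strand) for G6pdx, chr14:30548881-30549130 (plus strand) for Tkt and chrX:140456353-140456602 (plus strand) for Prps1. Capitals mark the GC box GGGCGG, a binding motif of Sp1-type factors, on either strand, and in G6pdx also the core of an antioxidant response element, TGACNNNGC, which is read on the reverse strand and spans the bases 57 to 49 before the start.
G6pdx: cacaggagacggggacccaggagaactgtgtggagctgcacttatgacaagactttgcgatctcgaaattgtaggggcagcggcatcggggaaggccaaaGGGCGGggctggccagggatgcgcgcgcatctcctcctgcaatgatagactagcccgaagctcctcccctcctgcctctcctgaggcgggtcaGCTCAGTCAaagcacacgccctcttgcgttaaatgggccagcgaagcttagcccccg
Tkt: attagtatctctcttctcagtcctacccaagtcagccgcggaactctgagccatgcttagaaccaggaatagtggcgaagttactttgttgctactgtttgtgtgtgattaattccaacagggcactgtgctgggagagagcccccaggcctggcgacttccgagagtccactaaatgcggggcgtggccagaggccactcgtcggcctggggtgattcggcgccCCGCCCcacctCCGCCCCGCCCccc
Prps1: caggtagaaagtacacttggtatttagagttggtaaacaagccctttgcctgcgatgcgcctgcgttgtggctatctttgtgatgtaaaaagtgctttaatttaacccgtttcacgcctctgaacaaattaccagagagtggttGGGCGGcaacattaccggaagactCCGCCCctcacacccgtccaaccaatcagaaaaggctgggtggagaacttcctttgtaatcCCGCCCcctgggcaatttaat

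A start window of 300 bases, 250 before and 50 after the start, was found in RefSeq for 10 of 10 members. A GC box was in 8 of 10 windows, all except those of H6pd and Prps2, and in 35.7% of the 32851 windows of all promoters. The 7 called genes each had one, but so did Prps1, which was not called and held 4, against 5 for Tkt and 1 for G6pdx. A CCAAT box was in 5 windows (37.4% of all promoters), and the antioxidant response core in that of G6pdx alone (12.4%). The E-box CACGTG was in 0 of the 10 windows and in 7.15% of all promoters. The TATA box TATAAA was in 0 windows (13.6% of all), as was the AP-1 motif TGANTCA (7.81%). The median GC content was 60.5% over the 10 windows and 52.7% over all. The RefSeq starts of H6pd, Tkt and G6pdx lay 5787, 772 and 314 bases from the gene's 5′ end in the table, so other start sites of these genes were not searched. These matches describe letters in a window, and binding was not measured.

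G6pdx (ENSMUSG00000031400, chrX:74409483-74429194, minus strand) encodes glucose-6-phosphate dehydrogenase, which opens the oxidative branch and sets its flux. It was measured at 6.02, 15.6 and 5.50 FPKM in 2-month replicates 1, 2 and 3 and at 93.0, 73.3 and 73.1 FPKM in 18-month replicates 1, 2 and 3. The ages did not overlap, and the highest 2-month library was replicate 2. G6pdx had the highest fold change of the 10, 8.51-fold with a log2 fold change of 3.09 (SE 0.42), and means of 9.05 ± 5.71 and 79.8 ± 11.4 FPKM (SD, n = 3). Leaving out 1 library at a time or changing the scaling, filter or tool moved its log2 fold change between 2.85 and 3.69. The gene lies within Ikbkg, which is read from the opposite strand and had 2258 to 3105 counts in every library, while G6pdx had 952 to 2821 counts at 2 months and 14204 to 19263 at 18 months. Its testis-type retrogene G6pd2, identical to it at 94.8% of aligned coding bases, had 3 counts in 18-month replicate 1 and 0 in the other libraries.

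H6pd (ENSMUSG00000028980, chr4:149979475-150009023, minus strand) encodes the enzyme of the endoplasmic reticulum that carries out the opening oxidative steps there and supplies NADPH to its lumen. Its FPKM was 15.8, 14.1 and 13.7 in the 2-month libraries and 12.9, 11.2 and 12.1 in the 18-month libraries. It was the only member with every 18-month library below every 2-month library, a pattern shown by 34.6% of all genes in CPM, the counts scaled by library size with TMM. The log2 fold change was −0.35 (SE 0.12), or 0.783-fold, within the limit for a call. G6pdx and H6pd share 67.8% of their aligned coding bases. The ratio of G6pdx to H6pd in FPKM was 0.380, 1.11 and 0.400 at 2 months and 7.23, 6.55 and 6.02 at 18 months. The cytosolic dehydrogenase was thus the lower of the pair in 2 of 3 young libraries and the higher in all 3 aged ones.

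Pgls (ENSMUSG00000031807, chr8:71592176-71601092, plus strand) encodes 6-phosphogluconolactonase, which hydrolyses the lactone made by the dehydrogenase. Its FPKM was 4.13, 10.1 and 4.92 at 2 months and 13.8, 16.5 and 16.3 at 18 months. The ages did not overlap, but 2-month replicate 2 stood between the other libraries of its age and the aged ones. The log2 fold change was 1.23 (SE 0.32), or 2.35-fold. The call was lost when 2-month replicate 3 (1.10), 18-month replicate 2 (1.19) or 18-month replicate 3 (1.20) was left out, and with TPM (0.96). Pgls overlaps Fam129c on the same strand, and the latter had 260, 2636 and 324 counts at 2 months and 1031, 1243 and 1270 at 18 months.

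Pgd (ENSMUSG00000028961, chr4:149149991-149166707, minus strand) encodes 6-phosphogluconate dehydrogenase, which makes the other NADPH of the branch and ribulose 5-phosphate. Its FPKM was 12.9, 19.8 and 13.2 at 2 months and 71.9, 57.4 and 58.8 at 18 months, with no overlap. The log2 fold change was 1.97 (SE 0.18), or 3.91-fold. Pgd stood above G6pdx in each 2-month library, at 2.14, 1.26 and 2.40 times its FPKM, and below it in each 18-month library, at 0.773, 0.783 and 0.805 times.

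**Figure D2:**
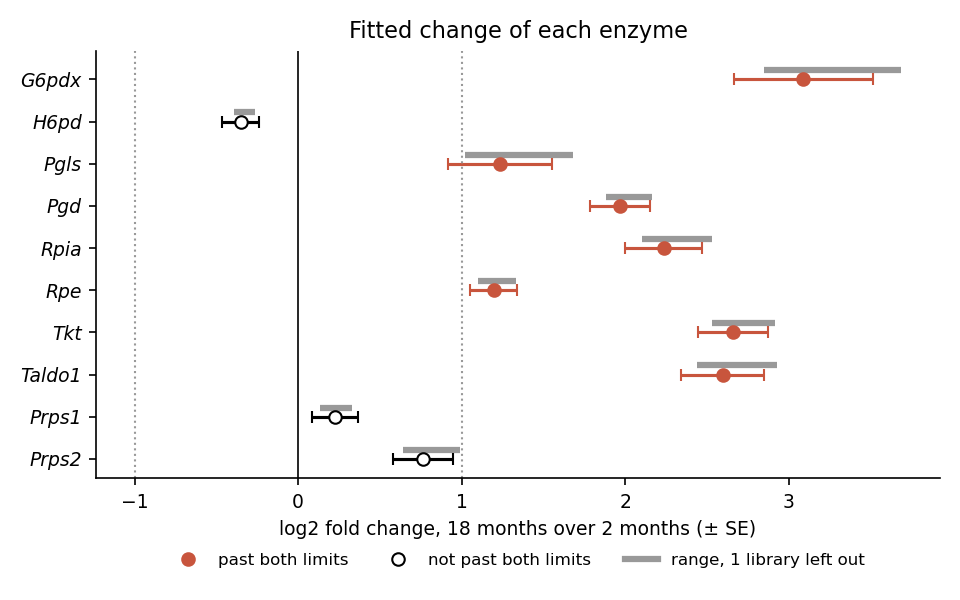
Log2 fold change of each gene, 18-month over 2-month, with points for the fitted value (filled where called), error bars of 1 SE, grey bars for the range with 1 library left out and dotted lines at the fold limits. G6pdx lies highest at 3.09 and H6pd lowest at −0.35, and the grey bar of each gene stays on its side of 0.

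The 4 enzymes of the non-oxidative branch were all called. Rpia (ENSMUSG00000053604, chr6:70765720-70792232, minus strand) encodes ribose-5-phosphate isomerase, which turns ribulose 5-phosphate into ribose 5-phosphate. Its FPKM was 2.53, 4.65 and 2.70 at 2 months, the lowest mean of the 10 genes, and 18.7, 15.7 and 14.4 at 18 months. The log2 fold change was 2.24 (SE 0.24), or 4.71-fold.

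Rpe (ENSMUSG00000026005, chr1:66700831-66719805, plus strand) encodes the epimerase that turns the same substrate into xylulose 5-phosphate. Its FPKM was 6.97, 9.60 and 7.11 at 2 months and 22.1, 17.8 and 17.2 at 18 months. The log2 fold change was 1.20 (SE 0.14), or 2.29-fold, and it fell under the limit for a call with TPM (0.84) and with quantile normalization (0.95). The 3′ end of Rpe overlaps Kansl1l, which lies on the opposite strand and had 1845 to 2112 counts at 2 months and 974 to 1310 at 18 months. The isomerase moved more than the epimerase: the ratio of Rpia to Rpe in FPKM was 0.362, 0.484 and 0.381 at 2 months and 0.846, 0.882 and 0.832 at 18 months.

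Tkt (ENSMUSG00000021957, chr14:30548359-30574720, plus strand) encodes transketolase, the thiamine-dependent enzyme that moves a ketol unit between sugar phosphates. Its FPKM was 10, 15.8 and 8.99 at 2 months and 79.5, 75.3 and 75.7 at 18 months, with a log2 fold change of 2.66 (SE 0.21), or 6.33-fold. Taldo1 (ENSMUSG00000025503, chr7:141392199-141402968, plus strand) encodes transaldolase, which works beside transketolase on the way back to glycolysis. Its FPKM was 21.6, 42.7 and 24.0 at 2 months and 185, 188 and 183 at 18 months, with a log2 fold change of 2.60 (SE 0.26), or 6.04-fold. These paired enzymes had close fold changes, and the ratio of Taldo1 to Tkt in FPKM overlapped between the ages, at 2.16, 2.69 and 2.67 against 2.32, 2.50 and 2.42. In both genes 2-month replicate 2 was the highest library of its age. The aged libraries lay close together in comparison, with means of 76.8 ± 2.32 FPKM for Tkt and 185 ± 2.42 FPKM for Taldo1 (SD, n = 3).

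The 2 PRPP synthetases, which attach pyrophosphate to ribose 5-phosphate, moved less. Prps1 (ENSMUSG00000031432, chrX:140456613-140476140, plus strand) was at 15.7, 12.5 and 14.2 FPKM at 2 months and 18.1, 17.8 and 16.7 at 18 months. Its log2 fold change was 0.22 (SE 0.14), or 1.17-fold, and turned to −0.12 when FPKM were rescaled to TPM. The ages did not overlap in FPKM but did in TMM-scaled CPM, so no direction is given for Prps1.

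Prps2 (ENSMUSG00000025742, chrX:167346322-167382749, minus strand) was at 3.07, 5.16 and 3.39 FPKM at 2 months and 6.97, 6.94 and 6.72 at 18 months. The log2 fold change was 0.76 (SE 0.18), or 1.70-fold, within the limit for a call. The coding sequences of Prps1 and Prps2 have the same length, 954 bases, and 80.0% of those bases are identical. Prps1 had 5.11, 2.42 and 4.20 times the FPKM of Prps2 at 2 months and 2.60, 2.56 and 2.49 times at 18 months, ranges that overlapped through 2-month replicate 2. Of 1866 windows of 100 bases along the Prps1 transcript, 65 (3.48%) also occur in Prps1l3, whose coding sequence is identical to it at 96.9% of bases, so reads of these 2 genes may have been divided in counting. No such window was shared by the 8 members other than Prps1 and G6pdx, and G6pdx shared 6 of 2553 with G6pd2.

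At 2 months the order by mean FPKM was Taldo1 (29.4), Pgd (15.3), H6pd (14.6), Prps1 (14.2), Tkt (11.6), G6pdx (9.05), Rpe (7.89), Pgls (6.37), Prps2 (3.88) and Rpia (3.29). Each neighbouring pair below Taldo1 overlapped between libraries. At 18 months Taldo1 (185) was followed by G6pdx (79.8) and Tkt (76.8), which overlapped, and then by Pgd (62.7). Rpe (19.0), Prps1 (17.5), Rpia (16.2) and Pgls (15.5) came next, each overlapping its neighbour, and H6pd (12.1) and Prps2 (6.88) stood last and apart. The aged order thus put G6pdx, Tkt, Pgd and Taldo1 well above the other 6 genes.

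The summed FPKM of the 10 genes was 98.7, 150.1 and 97.8 at 2 months and 521.6, 479.9 and 474.4 at 18 months. The genes took 0.0454%, 0.0676% and 0.0453% of all counts at 2 months and 0.237%, 0.214% and 0.215% at 18 months. Within that sum Taldo1 held 24.9% ± 3.32 at 2 months and 37.7% ± 2.05 at 18 months (SD, n = 3), G6pdx 7.38% ± 2.64 and 16.2% ± 1.44, and Tkt 9.96% ± 0.698 and 15.6% ± 0.363. The share of Pgd was 13.2% ± 0.217 and 12.7% ± 0.954. H6pd made up 13.2% ± 3.40 of the sum in young and 2.45% ± 0.113 in aged cartilage, and Prps1 12.9% ± 4.04 and 3.57% ± 0.125.

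**Figure D3:**
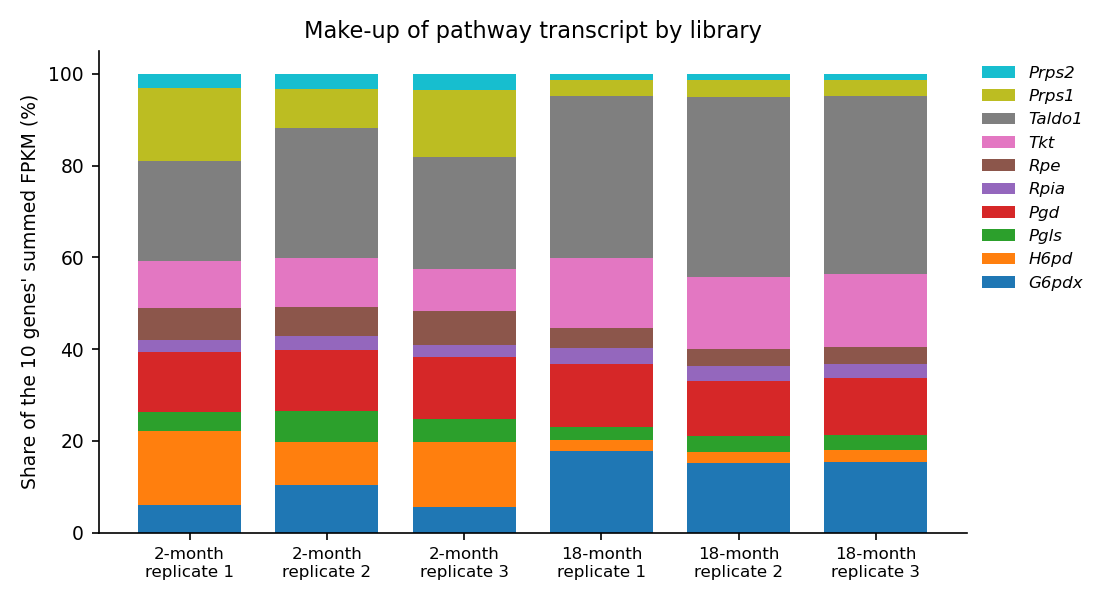
Share of each gene in the summed FPKM of the 10 genes, in percent, as 1 stacked bar for each of the 6 libraries. Taldo1, G6pdx and Tkt take a greater part of the 18-month bars, and H6pd and Prps1 a smaller one.

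The young libraries differed among themselves. Replicate 2 was above both other 2-month libraries in 8 of the 10 genes, all but H6pd and Prps1. Its FPKM over the geometric mean of replicates 1 and 3 was 2.72 for G6pdx, 2.23 for Pgls, 1.88 for Taldo1, 1.78 for Rpia, 1.67 for Tkt, 1.60 for Prps2, 1.52 for Pgd and 1.36 for Rpe. It was 0.958 for H6pd and 0.836 for Prps1, the pair with the smallest fold changes with age. Among the aged libraries, replicate 1 was above both others in 8 genes and below both in Pgls. The share of all genes with either library highest of its age was not counted, so these counts are not read as particular to the pathway.

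The same young library stood apart in markers of several cell types. Osteoclast markers took 0.598% of its counts, against 0.00703% and 0.101% in the other 2-month libraries and 0.245% to 0.279% at 18 months. B lymphocyte markers took 0.0294% of it, against 0.00105% and 0.00148% in the other young libraries and 0.0215% to 0.0260% in the aged ones. Both lists were thus higher in this library than in any aged one. The 10 T and NK lymphocyte markers took 0.00011%, 0.00422% and 0.00026% at 2 months and 0.0190%, 0.0180% and 0.0178% at 18 months. Markers of osteoblasts and osteocytes (2.17%), of endothelial cells (0.0307%) and of chondrocytes (6.42%) were also at their highest of the 2-month libraries there, and those of synovial and tendon fibroblasts (1.52%) at their lowest. The 12 neutrophil markers took 0.559% of its counts against at most 0.0268% in the other 2-month libraries. Mmp9 is in both the neutrophil and the osteoclast list, so these shares are not separate. It held 97772 of the 288933 neutrophil marker counts in 2-month replicate 2 and 10132 of 12909 in replicate 3. The 11 erythroid markers measured took 0.0248%, 0.666% and 0.0698% at 2 months and 2.73%, 3.61% and 3.60% at 18 months. The 10 monocyte and macrophage markers took 0.00468%, 0.05002% and 0.0100% at 2 months and 0.174%, 0.165% and 0.166% at 18 months. The 12 proliferation markers took 0.0163%, 0.105% and 0.0210%, then 0.372%, 0.352% and 0.347%. In the fold changes of these lists, 11 of 12 neutrophil, 11 of 11 erythroid, 9 of 10 monocyte and macrophage and 12 of 12 proliferation markers had every 18-month library above every 2-month library, against 33.9% of all genes and 8 of the 10 pathway genes.

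Defining markers were absent from single young libraries: Elane and Car1 had 0 counts in 2-month replicate 3, and Adgre1 and Fcgr1 had 0 in replicate 1. In edgeR's quasi-likelihood test of age 0 of 12 neutrophil markers were called, with 2 at an unadjusted p below 0.05, as were 3 of 11 erythroid and 2 of 10 monocyte and macrophage markers. DESeq2 called 10, 9 and 5 of them higher, limma on log2(FPKM + 0.1) 11, 11 and 7, and edgeR without 2-month replicate 2 called 11, 11 and 9. The shares of these lists were higher in the same libraries as most of the pathway genes, and their part in the values of the 10 genes was not tested. In bulk RNA, a change in the number of cells of a type and a change in the RNA per cell cannot be told apart. Of the 10 genes, 3 (G6pdx, Prps1 and Prps2) lie on chromosome X and 7 do not. Without 2-month replicate 2, the young library that stood apart, the median log2 fold change of the 10 genes was 1.92. In that fit 7 of the 10 were called higher, where 23.3% of all genes were called higher and 44.6% in either direction.

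**Figure D4:**
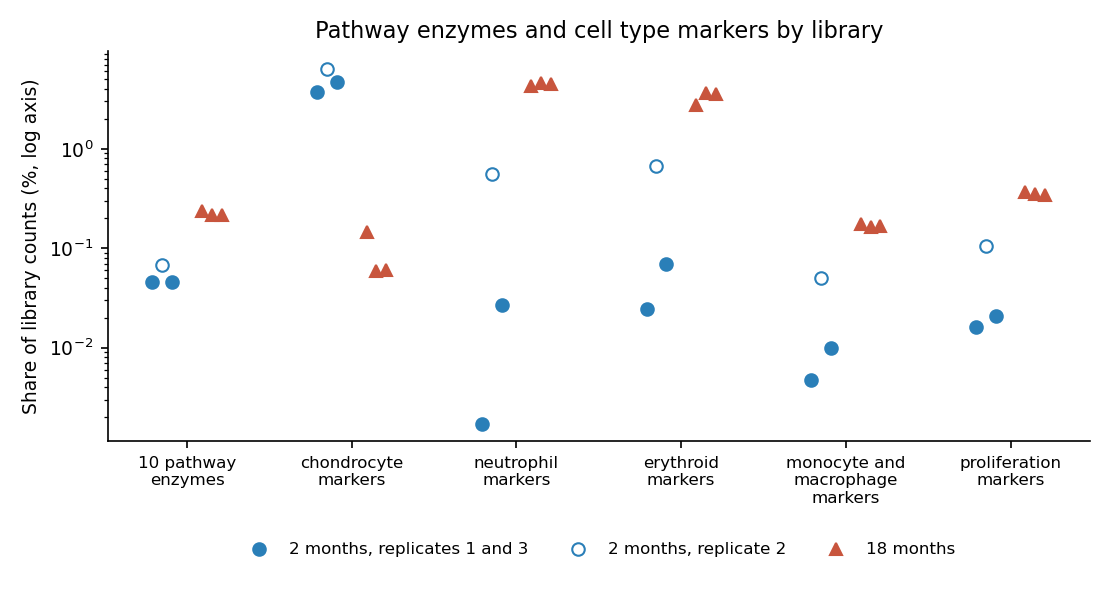
Share of all counts, in percent on a log axis, taken by the summed counts of marker lists and of the 10 pathway genes in each of the 6 libraries, with 2-month replicate 2 as an open circle. In 2-month replicate 2 the pathway genes (0.0676%), the neutrophil markers (0.559%) and the erythroid markers (0.666%) lie above their values in the other 2-month libraries, as do the chondrocyte markers (6.42%).

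Genes around the pathway were read from lists, with edgeR's quasi-likelihood test and Benjamini-Hochberg adjustment over all genes for each. Beside the counts in every list, 14.9% of all genes tested were called higher and 21.3% lower. Without 2-month replicate 2 these shares were 23.3% and 21.3%. Of 14 paralogs and further pathway genes, 11 passed the filter on low counts, 4 were called higher and 1 lower. Rbks, ribokinase, which phosphorylates free ribose, had a log2 fold change of 1.54 (SE 0.21, adjusted p = 0.00319). Dera, the deoxyribose-phosphate aldolase that returns deoxyribose to glycolysis, had 1.61 (SE 0.28, adjusted p = 0.00637). Pgm2, which acts on phosphopentoses, had 1.21 (SE 0.16, adjusted p = 0.00293). Prps1l1, a retrogene copy of the synthetase, was low at both ages (0.144 ± 0.0712 and 0.708 ± 0.349 FPKM, SD, n = 3), and its log2 fold change of 2.21 was no longer called without 2-month replicate 1 (2.27) or 3 (1.91) or 18-month replicate 2 (2.10) or 3 (1.89).

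The lower gene, Pgm1, the phosphoglucomutase of glycogen metabolism, had a mean of 19.9 ± 6.07 FPKM at 2 months and 10.6 ± 0.260 at 18 months and lost its call under 12 alternatives, including leaving out any library except 2-month replicate 2 (−1.04 to −0.71). Prpsap1, an associated protein of the PRPP synthetases, had a log2 fold change of −0.80 (SE 0.16, adjusted p = 0.00956) and Prps1l3 one of 0.53 (SE 0.14, adjusted p = 0.0234), both within the limit. Idnk (0.60), a gluconate kinase, was also within it, and Glyctk (0.44), Shpk and Prpsap2 did not pass the adjusted p. Shpk, which makes sedoheptulose 7-phosphate for the non-oxidative branch, was at 1.60 ± 0.364 and 1.51 ± 0.133 FPKM. The transketolase-like gene Tktl1 had 0 counts in 4 libraries and 26 and 15 in 18-month replicates 2 and 3, and Tktl2 had 4 counts in 1 young library and 0 elsewhere.

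Glycolysis, from which the pathway branches, was read from 21 genes, with 2 higher calls, 8 lower calls and a median log2 fold change of −0.66. There were 4 higher calls without 2-month replicate 2, and 5 lower calls without 18-month replicate 2 or 3. The phosphofructokinases, which commit sugar to glycolysis, were all called lower, with log2 fold changes of −2.26 for Pfkl (SE 0.35, adjusted p = 0.00448), −1.32 for Pfkm (SE 0.16, adjusted p = 0.00208) and −1.72 for Pfkp (SE 0.37, adjusted p = 0.0117). Gpi1, the isomerase that shares glucose 6-phosphate with G6pdx, was called higher at 1.19 (SE 0.18, adjusted p = 0.0043). Ldha, lactate dehydrogenase, had the highest FPKM of the list when averaged over all 6 libraries, with 319 ± 119 at 2 months and 158 ± 22.2 at 18 months (SD, n = 3). Its log2 fold change of −1.11 (SE 0.33, adjusted p = 0.0365) lost its call under 8 alternatives, including leaving out any library except 2-month replicate 2 (−1.20 to −0.78). Fbp2, the muscle fructose bisphosphatase, had 15, 20 and 11 counts at 2 months and 0 in each 18-month library, at least 6.09-fold lower against a floor of 3 counts per library.

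Lists of processes that draw on NADPH were read next. Not every listed enzyme of fatty acid and sterol synthesis uses NADPH itself, so the counts of that list do not describe NADPH users alone. Of 10 reductases 6 were called higher and 1 lower, with a median log2 fold change of 1.32. Gsr, glutathione reductase, was at 15.4 ± 14.1 and 207 ± 21.4 FPKM, with a log2 fold change of 3.72 (SE 0.65, adjusted p = 0.00618). Cbr1, a carbonyl reductase, was the lower gene, at 6.99 ± 0.931 and 3.49 ± 0.456 FPKM, and was not called without 2-month replicate 1 (−0.95). Of 6 subunits of the phagocyte NADPH oxidase 3 were called, all higher. All 6 were called without 2-month replicate 2, a fit in which 23.3% of all genes were called higher. Their median log2 fold change was 4.17 with all libraries. In all 6 every 18-month library was above every 2-month library, as in 33.9% of all genes in TMM-scaled CPM. Cyba, its membrane subunit shared with other oxidases, was at 22.1 ± 11.8 and 223 ± 2.73 FPKM, with a log2 fold change of 3.28 (SE 0.35, adjusted p = 0.00172). Of 11 enzymes of fatty acid and sterol synthesis 1 was called higher and 5 lower, with 3 lower calls without 2-month replicate 3 or 18-month replicate 3. Scd2, a stearoyl-CoA desaturase, was at 66.4 ± 6.04 and 13.2 ± 5.38 FPKM (log2 fold change −2.42, SE 0.30, adjusted p = 0.00238).

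The list of other NADPH sources, which also holds the NAD+ kinases Nadk and Nadk2, divided. Of 12 genes 4 were called higher, these kinases among them, and 3 lower. Nadk, the kinase that makes NADP+ from NAD+, rose from 16.2 ± 5.22 to 61.5 ± 5.32 FPKM, a log2 fold change of 1.86 (SE 0.21, adjusted p = 0.00184). Me1, the cytosolic malic enzyme, fell from 38.1 ± 13.8 to 2.33 ± 1.72 FPKM, a log2 fold change of −4.14 (SE 0.64, adjusted p = 0.00417). Me1 was the higher of the pair with G6pdx in mean FPKM at 2 months, and G6pdx was the higher at 18 months.

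**Figure D5:**
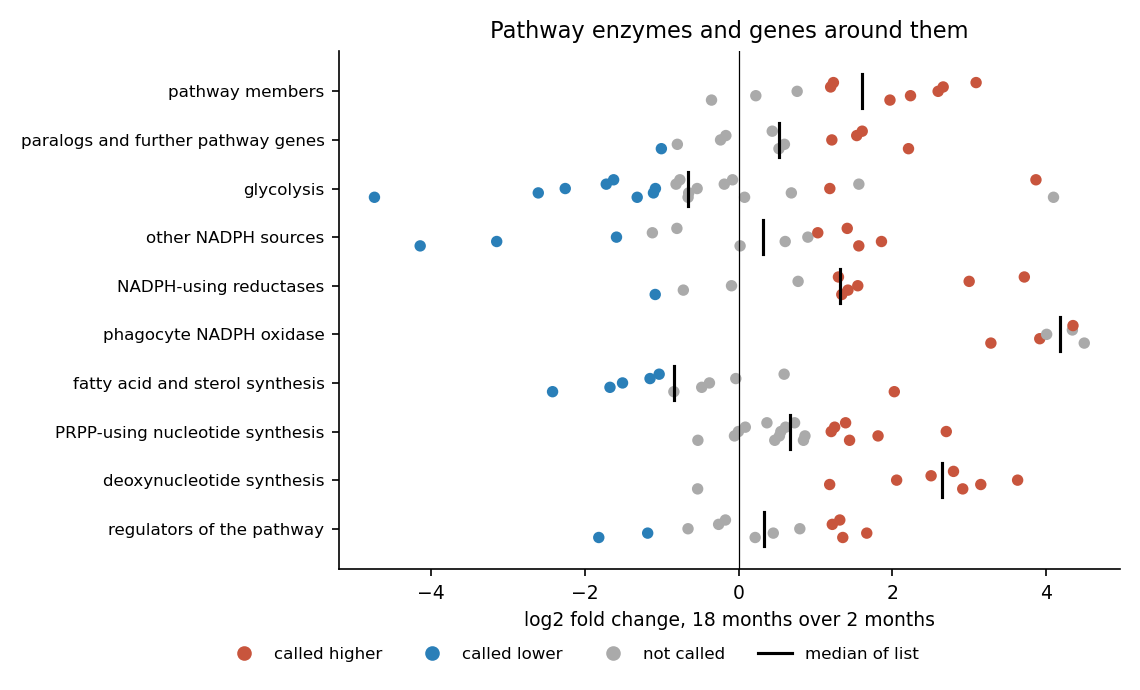
Log2 fold change, 18-month over 2-month, of each tested gene in the pathway and in the related lists, with 1 point per gene coloured by its call, a short bar for each list's median and a line at 0. The median is 1.60 for the 10 pathway genes, 4.17 for phagocyte oxidase subunits and 2.65 for deoxynucleotide enzymes, and it lies below 0 for glycolysis (−0.66) and fatty acid and sterol synthesis (−0.84), and Fbp2 is drawn at its bound of −2.61.

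Of 18 genes of nucleotide synthesis or of other PRPP use, 6 were called higher and 0 lower (33.3%), with a median log2 fold change of 0.67. Hprt, which salvages hypoxanthine and guanine with PRPP, rose from 31.2 ± 3.54 to 86.1 ± 7.18 FPKM (log2 fold change 1.39, SE 0.12, adjusted p = 0.00125). Qprt, which uses PRPP in NAD+ synthesis, was low at both ages (0.180 ± 0.187 and 1.23 ± 0.186 FPKM). Its call was lost without any library except 2-month replicate 2 (2.32 to 2.81). Of 8 genes of deoxynucleotide synthesis 7 were called higher (87.5%), with a median of 2.65. Rrm2, the ribonucleotide reductase subunit that follows S phase, had the largest rise (3.63, SE 1.12, adjusted p = 0.0388) from 7.22 ± 9.80 to 89.7 ± 11.4 FPKM. Its call was lost without 2-month replicate 3 (3.21) or any 18-month library (3.55 to 3.75). Of the 12 proliferation markers 10 were called higher too, and their part in these values was not tested.

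Among 12 regulators of the pathway 4 were called higher and 2 lower. Nfe2l2, the antioxidant response factor, rose from 12.6 ± 1.85 to 30.9 ± 1.01 FPKM (log2 fold change 1.22, SE 0.11, adjusted p = 0.00127). Its repressor gene Keap1 had a log2 fold change of −0.26 (SE 0.12, adjusted p = 0.11). The repressor Bach1, in the same list, was called higher as well, at 1.36 (SE 0.17, adjusted p = 0.00233). Myc rose by 1.67 (SE 0.37, adjusted p = 0.0134), a call lost without 2-month replicate 3 (1.60), and Tigar, a fructose bisphosphatase that diverts glucose into the pathway, by 1.32 (SE 0.24, adjusted p = 0.00665). Hif1a, the oxygen-regulated factor that drives glycolytic genes, fell from 54.4 ± 6.60 to 16.3 ± 0.998 FPKM (log2 fold change −1.82, SE 0.15, adjusted p = 0.00117).

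The table's own KEGG column places 25 genes in the pathway, of which 7 are among the 10 (not H6pd, Pgd or Prps2). Of the 18 others 13 were tested, 4 were called higher (Gpi1, Pgm2, Prps1l1 and Rbks) and 6 lower (Aldoc, Fbp2, Pfkl, Pfkm, Pfkp and Pgm1). Over all genes tested 14.9% were called higher and 21.3% lower. The 6 lower genes also act in glycolysis, gluconeogenesis or glycogen metabolism, as does Gpi1. This column was seen with earlier results of these data, so it adds no independent support.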

How the data were processed

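Polyadenylated RNA was sequenced from 6 libraries. For each gene the authors deposited unnormalized counts and FPKM values, the latter scaled by transcript length and library size. The submitters' processing notes name cutadapt 1.9, HISAT2 2.0.4, UMI-tools, StringTie 1.3.4d, DESeq2 and edgeR, with no role. The build, annotation and counting strand are not given in the sources used here. Of 33971 genes 33865 were found in GENCODE M21, 30925 (91.3%) with identical coordinates, which places the table on GRCm38. All columns of single libraries were used (0 left out).

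The test was edgeR 4.0.16 in R 4.3.3 (TMM, filterByExpr, quasi-likelihood test, Benjamini-Hochberg), without a replicate block. SEs were derived from each fold change and its F statistic. The study describes its experiments as run on independent samples. Neither it nor the labels say how animals were assigned to libraries, and p-values measure the spread between these libraries. The smallest p of an exact permutation test at 3 against 3 is 0.1. Alternatives were median-of-ratios and total-count scaling, omitting the filter or requiring a mean FPKM of 1, DESeq2 1.42.0, limma 3.58.1 on log2(FPKM + 0.1) for a mean FPKM of at least 0.1, with a pseudocount of 1, TPM or quantile normalization, no fold limit, a replicate block and leaving out each library. The tests were also run on simulated counts with the same spread for all genes and no outlying library. That setting is unlike these data, so the check says nothing about the calls given here. Sequences were searched with Biopython 1.88 in Python 3.11.15 and figures drawn with matplotlib 3.10.9.

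The members, gene lists and marker lists were chosen with earlier results of these data known. Named outside the members were Xist, each paralog with at least 10 counts in a library and, per list, the gene of highest mean FPKM and the called genes of largest rise and fall. Of these, 3 genes are not reported here. Pfkl, Pfkm, Pfkp, Gpi1, Nfe2l2, Keap1, Bach1, Tigar, Nadk2, G6pd2, Tktl2 and the overlapping genes were named after their values were seen.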

Additional observations from a re-analysis of the deposited data

How the results depend on the processing

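With all libraries, 7401 genes were called. Leaving out 1 library gave 5640 to 9583 calls, with 2095 to 5007 higher (3047 with all) and 3499 to 4576 lower (4354). The highest count of higher genes, 5007, came without 2-month replicate 2, and with no fold limit 4769 were higher. Limma on log2(FPKM + 1) called 2217 lower, and 57.8% of its calls were higher, against 41.2% in the reported fit. Higher calls made up 52.2% without 2-month replicate 2. The members' count of 7 became 5 with TPM (Pgls and Rpe lost), 6 with quantile normalization, and 6 without 2-month replicate 3, 18-month replicate 2 or 18-month replicate 3. With no fold limit 1 member (H6pd) was lower. The median of the members was 1.29 with TPM, where the median of all genes was −0.33, and 1.51 to 1.92 with 1 library left out. Reversed values were Prps1 with TPM (−0.12) and Shpk without 2-month replicate 3 (0.0656, with −0.27 to 0.0656 over the libraries left out). The related lists held 57 called genes together, 46 to 66 with 1 library left out. A single gene was taken as unchanged where its direction and call held, and a related list where its count of calls stayed within a set ratio. Under other settings 807 values were unchanged by this rule and 40 list counts moved. Among single genes 55 values lost their call, 1 gained one and 2 reversed. The cause of these moves was not tested.

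Replicate numbers did not pair the samples: deviations of same-numbered libraries correlated at 0.091, 0.094 and −0.087, and not every library correlated best with its own number. With the replicate block 6032 genes were called, and 7 members. Fbp2, Ldha, Pgm1 and Prps1l1 lost their calls with it. Libraries of 1 age differed by more than counting noise and were kept separate. Median squared differences, as multiples of counting noise, were 6.32 between 18-month replicates 2 and 3, and 23.4 and 23.5 between these and replicate 1. At 2 months they were 13.1 between replicates 1 and 3, and 48.8 and 36.4 against replicate 2. Synovial and tendon fibroblast markers took 0.715% of 18-month replicate 1, against 0.147% and 0.146% in the other aged libraries. Depth of 48171507 counts or more left the members at 654 counts or above, so that the spread between libraries, and in Tktl1, Tktl2, G6pd2 and Fbp2 the low counts, limited precision.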
